A study of Mus musculus with 6 samples.

Results

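The genes described here are 45 mouse genes for protein folding chaperones and their stress regulators, measured by RNA-seq in 3T3-L1 fibroblasts. They were chosen by name, as the rows of the count table whose Entrez identifier belongs to a listed symbol, and make up 45 of the 23725 genes in the table. By the place where their proteins work they were divided into 15 cytosolic chaperones, the 8 subunits of the cytosolic chaperonin CCT, 14 chaperones of the endoplasmic reticulum (ER), 3 mitochondrial chaperones and 5 stress regulators. 3T3-L1 is a line of mouse embryonic fibroblasts that can be turned into adipocytes. Extracellular vesicles (EVs) came from MLP29, a line of mouse liver progenitor cells, and were isolated by differential ultracentrifugation. In the EV group, 3 libraries, numbered 1, 2 and 4, came from plates that received EVs for 24 h, on average 20 µg of EV protein per plate. In the control group, 3 libraries, numbered 1, 2 and 3, came from plates that received, for the same time, what the same isolation gave from medium in which no cells had grown. All plates held HEPES-buffered complete DMEM from which vesicles had been removed. The comparison thus rests on 1 recipient line and EVs of 1 donor line, with a plate of cells and a preparation for each library. Values of single libraries are listed in the order of these numbers.

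Chaperones bind unfolded stretches of protein and release them so that the chain can fold. In the cytosol, HSP70 proteins (Hspa8) work with J-domain partners (the Dnaj genes) and nucleotide exchange factors, and hand clients to HSP90 (Hsp90aa1, Hsp90ab1) through co-chaperones, while the ring-shaped CCT folds actin and tubulin. The ER holds its own HSP70 and HSP90 (Hspa5, Hsp90b1), the lectin chaperones Calr and Canx, and the protein disulfide isomerases, and fibroblasts use them heavily because they secrete collagen and other matrix proteins. Heat shock factor (Hsf1) and regulators of the unfolded protein response (Xbp1, Atf4, Ddit3), which has Herpud1 among its targets, are known to adjust the supply of chaperones to the load of unfolded protein.

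The counts summed to between 508599 and 665465 per library, and no pair of libraries of a group was alike enough to be a duplicate. Counts were tested for all genes together with edgeR's quasi-likelihood test, and p-values were adjusted (Benjamini-Hochberg) over the 5066 genes left after a filter on low counts. The threshold was 0.05. The kit that made the libraries keeps the strand of the RNA, but the strand setting of the counting is not given in the sources used here, so a value below stands for the count listed under a gene and not for the amount of its mRNA. All 12 fibroblast markers had counts, and 9 of them passed the threshold on the lower side. Their summed normalized CPM was between 2768 and 3179 in the control libraries and between 1234 and 1546 in the EV libraries. For normalized CPM, counts were divided by each library's total over the genes kept by the filter, times its TMM factor from edgeR. Of 10 markers of the EV donor line, 7 were at 0 in every library (Alb, Afp, Krt8, Krt18, Krt19, Epcam and Hnf4a), and of 6 adipocyte markers Adipoq, Plin1 and Cd36 were. The donor line markers summed to between 55.4 and 92.7 normalized CPM in controls and between 34.5 and 40.2 after EVs, and the adipocyte markers to between 205 and 270 and between 165 and 188. Of each of these lists 1 gene was tested, Spp1 and Lpl, and each was lower. The part of these markers in the results below was not tested.

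Most of the chaperone genes had lower counts in the EV libraries. Of the 45 genes, 38 passed the filter on low counts, and 35 of these had a negative log2 fold change, the EV level relative to the control level, against 48.8% of all genes tested. On the lower side, 19 of the 38 passed the threshold, against 14.3% of all genes tested. Only Tcp1 passed it on the higher side, against 7.58% of all genes tested. The normalized CPM of all EV libraries lay below those of all control libraries in 29 of the 38 genes, against 21.5% of all genes, and above them in 2, against 17.9%. The median log2 fold change of the 38 was -0.60, beside 0.01 over all genes tested. RNA was taken from whole plates, so for whatever RNA was counted under a gene, fewer cells of a type and less RNA per cell cannot be told apart. The summed fibroblast markers and the chaperone genes were lower in the same 3 libraries, and the part of that in the counts of the chaperone genes was not tested.

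**Figure D1:**
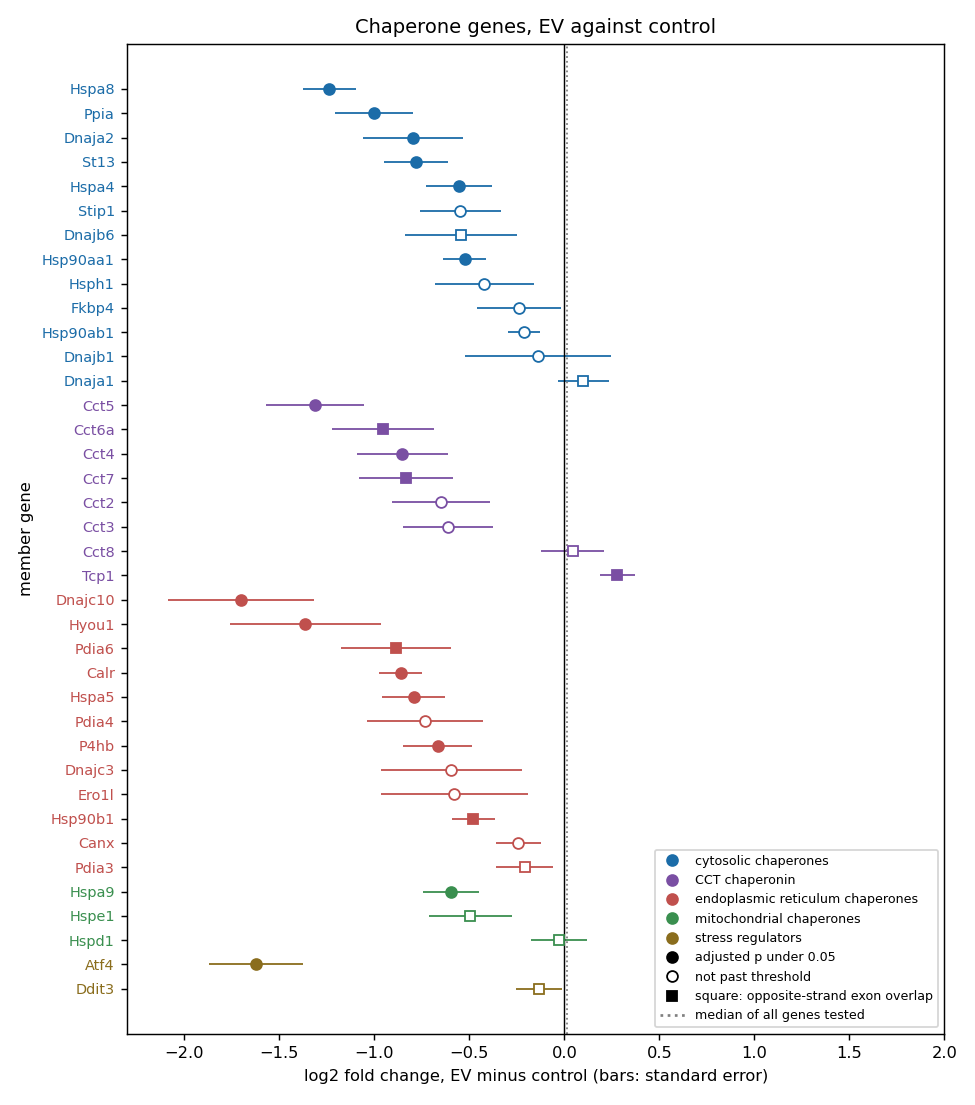
Log2 fold change of the 38 tested chaperone genes, EV relative to control, with its standard error, in 5 groups ordered from the most negative value. Filled symbols mark an adjusted p under 0.05, and squares mark genes with an opposite-strand exon overlap. Of the filled symbols, 19 lie left of 0 and 1, Tcp1, lies right of it.

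The remaining 7 genes had too few counts for the test. Counts per library were 1 to 7 for Hspb1, 6 to 17 for Bag3, 5 to 18 for Dnajb11, 4 to 12 for Hsf1, 1 to 5 for Xbp1, 2 to 14 for Herpud1 and 0 to 3 for Sdf2l1, which thus lay at the floor of 3 counts in every library. Herpud1, a gene of the unfolded protein response whose product takes part in the removal of misfolded ER proteins, had 9, 14 and 5 counts in control libraries 1, 2 and 3 and 3, 3 and 2 in EV libraries 1, 2 and 4. Its normalized CPM did not overlap between the groups, and with no filter its adjusted p was 0.0885. Of the tested genes, Hyou1, Dnajc3 and Dnajc10 had under 10 counts in every EV library and passed the filter through the control libraries.

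**Figure D2:**
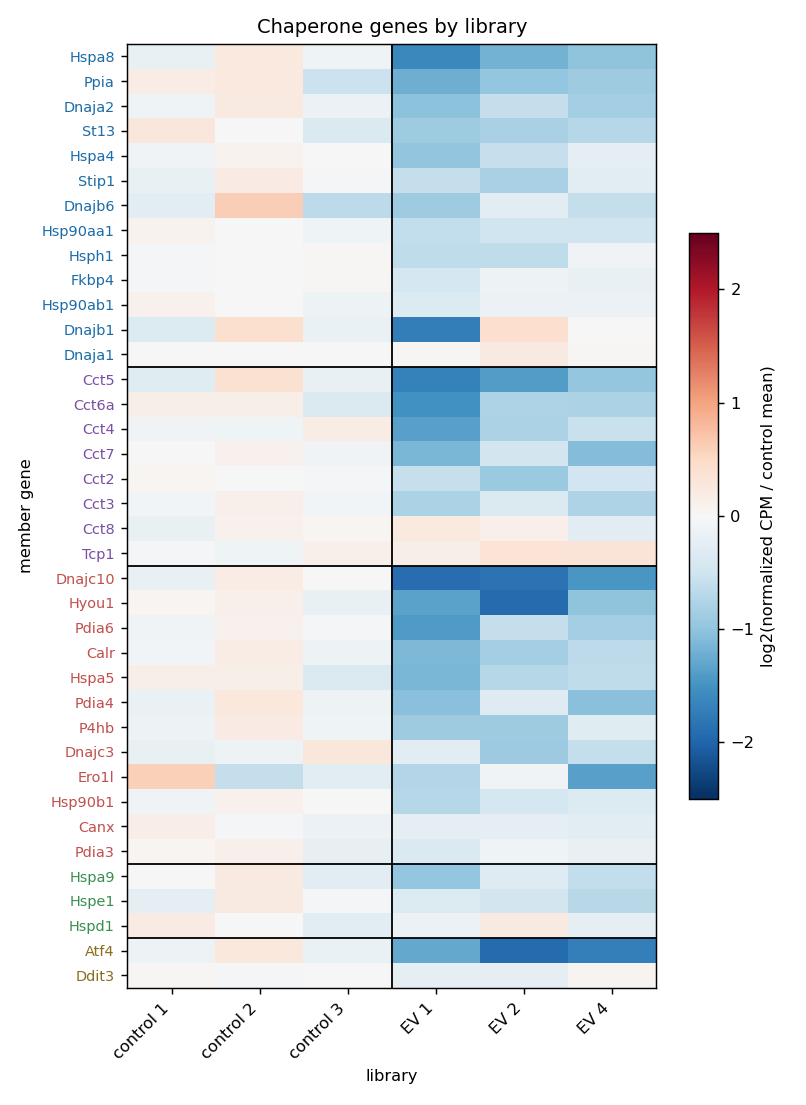
Normalized CPM of the 38 tested chaperone genes in each library, as log2 of the ratio to the mean of the 3 control libraries, blue for lower and red for higher. Horizontal lines divide, from the top, cytosolic chaperones, CCT, ER chaperones, mitochondrial chaperones and stress regulators, and the vertical line divides control from EV libraries. Rows such as Hspa8, Cct5, Dnajc10 and Atf4 are blue in all 3 EV libraries, and Dnaja1, Cct8 and Tcp1 are not.

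Among the 15 cytosolic chaperones, 13 were tested, 6 passed the threshold on the lower side and none on the higher side, with a median log2 fold change of -0.55. Hspa8 (chromosome 9, 40801276 to 40805202 of GRCm38, plus strand), the HSP70 protein that cells make without stress, had the lowest adjusted p of all chaperone genes. Its counts were 195, 298 and 242 in control libraries 1, 2 and 3 and 63, 102 and 106 in EV libraries 1, 2 and 4. Every EV library lay far below the lowest control library. The EV level was 0.424 times the control level (log2 fold change -1.24, standard error (SE) 0.14, adjusted p = 2.69e-09). Ppia, cyclophilin A, which turns proline bonds in folding chains, had 72, 85 and 52 counts in controls and 24, 34 and 33 after EVs. Control library 3 was the lowest control and was still above each EV library, and the log2 fold change was -1.0 (SE 0.21, adjusted p = 0.000362).

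Of the HSP70 partners among the 15, St13, Dnaja2 and Hspa4 passed the threshold, each on the lower side. St13, which stabilizes the client-bound state of HSP70, had 122, 113 and 92 counts in controls and 47, 60 and 59 after EVs, a log2 fold change of -0.78 (SE 0.17, adjusted p = 0.000615). Dnaja2, a J-domain protein that starts the HSP70 cycle, had 28, 40 and 32 counts against 13, 21 and 16 (-0.80, SE 0.26, adjusted p = 0.024). Hspa4, an exchange factor that reloads HSP70 with ATP, had 72, 92 and 91 counts against 34, 54 and 63 (-0.55, SE 0.18, adjusted p = 0.0189). In all these genes the groups did not overlap. The calls of Hspa4 and Dnaja2 were lost without control library 2 (adjusted p = 0.0832 and 0.113) and without EV library 1 (0.162 and 0.0869), that of Hspa4 also without EV library 2 (0.0686), and that of Dnaja2 without EV library 4 (0.0865).

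Both cytosolic HSP90 genes were among the most counted members, and they differed in whether they passed the threshold. Hsp90aa1, the form that stress induces, on chromosome 12 (110691036 to 110696395, minus strand), had 304, 323 and 312 counts in controls and 163, 212 and 194 after EVs. The spread within each group was small beside the gap between them, and the log2 fold change was -0.53 (SE 0.11, adjusted p = 0.000512). Hsp90ab1, the form made at all times, on chromosome 17 (45567778 to 45573261, minus strand), had 1727, 1827 and 1745 counts in controls and 1101, 1510 and 1387 after EVs. Its normalized CPM, between 2726 and 3188 in the controls and between 2327 and 2660 in the EV libraries, did not overlap between the groups. Its log2 fold change was -0.22 (SE 0.08) and its adjusted p of 0.0582 missed the threshold. Hsp90ab1 passed it under 4 of 13 alternatives, among them without control library 3 (0.00324). Per kilobase of exon, Hsp90ab1 was counted more than Hsp90aa1, with 987 against 133 normalized CPM per kilobase in the control libraries and 850 against 92.4 in the EV libraries. Whether the log2 fold changes of Hsp90aa1 and Hsp90ab1 differ was not tested.

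The other 6 tested cytosolic chaperones that missed the threshold had log2 fold changes between -0.55 and 0.10. Stip1, the adaptor that joins HSP70 to HSP90, was nearest to it, with 38, 57 and 50 counts in controls and 25, 26 and 35 after EVs (-0.55, SE 0.22, adjusted p = 0.0586). For the J-domain gene Dnaja1 the counts were 114, 130 and 134 in controls and 101, 140 and 112 after EVs (0.10, SE 0.14, adjusted p = 0.623). Its normalized CPM lay between 209 and 211 in the controls and between 213 and 247 in the EV libraries, slightly above, and with scaling to the total library size alone its log2 fold change was -0.04. Dnajb1 and Hsph1, which heat shock is known to induce, had adjusted p-values of 0.82 and 0.239, and the counts of Dnajb1, between 3 and 17, overlapped between the groups. Dnajb6 and Fkbp4 also missed the threshold, with adjusted p-values of 0.174 and 0.447.

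Subunits of CCT passed the threshold in both directions. On the lower side 4 of the 8 passed the threshold (Cct4, Cct5, Cct6a and Cct7), Tcp1 passed it on the higher side, and Cct2, Cct3 and Cct8 did not pass. Cct5 (chromosome 15, 31590800 to 31601846, minus strand) had 33, 60 and 42 counts in controls and 11, 16 and 20 after EVs. The highest EV library was well below the lowest control library, and the level in EV libraries was 0.403 times that in controls (log2 fold change -1.31, SE 0.26, adjusted p = 0.000204). Cct6a had 36, 41 and 30 counts against 10, 20 and 18 (-0.96, SE 0.27, adjusted p = 0.00806). Cct4 had 36, 40 and 51 against 13, 23 and 25 (-0.85, SE 0.24, adjusted p = 0.0088). Cct7 had 35, 43 and 39 against 14, 27 and 16 (-0.84, SE 0.25, adjusted p = 0.0124). In these 4 subunits the groups did not overlap. Without EV library 1 the adjusted p was 0.0638 for Cct4, 0.0548 for Cct6a and 0.0595 for Cct7, without control library 2 it was 0.053 for Cct6a and 0.0592 for Cct7, and without EV library 4 it was 0.0798 for Cct7, while Cct5 passed the threshold in every alternative.

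Cct2 and Cct3 just missed the threshold, with adjusted p-values of 0.0615 and 0.0532. Cct2 had 30, 33 and 33 counts in controls and 17, 16 and 20 after EVs, a log2 fold change of -0.65 (SE 0.26). The counts of Cct3 were 34, 44 and 40 against 18, 29 and 20, a log2 fold change of -0.61 (SE 0.24). In both genes the groups did not overlap. Cct8 had 62, 87 and 87 counts in controls and 73, 81 and 57 after EVs, so that the groups overlapped (0.04, SE 0.17, adjusted p = 0.874, and -0.09 with scaling to the total library size alone).

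Tcp1, the first subunit of the ring, stood apart in level as well as in direction. It lies on chromosome 17 (12916329 to 12925067, plus strand) and had 583, 625 and 768 counts in controls and 576, 793 and 718 after EVs. After scaling, its normalized CPM was 1076, 1016 and 1200 against 1217, 1397 and 1377, each EV library above each control library, though EV library 1 was only just above control library 3. The log2 fold change was 0.28 (SE 0.09, adjusted p = 0.0243). This call was lost with scaling to the total library size alone (0.14, adjusted p = 0.211), with at least 10 counts required in every library (0.20, adjusted p = 0.115), and when control library 1 (0.105) or 2 (0.208) or EV library 2 (0.0893) or 4 (0.0707) was left out. Per kilobase of exon, Tcp1 had 218 normalized CPM in the controls, the other subunits between 9.61 (Cct7) and 42.3 (Cct8), although an assembled ring holds the subunits in equal number. These lengths are of all annotated exons of a gene together.

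The exons of Tcp1 overlap those of Acat3, a thiolase gene on the opposite strand, over 571 bases, 11.4% of the exon length of Tcp1. Acat3 had 2710, 2862 and 3214 counts in controls and 2640, 3337 and 3026 after EVs. Its counts ran several times above those of Tcp1 in every library, and its normalized CPM was higher in each EV library than in each control library (log2 fold change 0.23, SE 0.08, adjusted p = 0.0251). The call of Acat3 was lost without control library 2 (adjusted p = 0.152), EV library 2 (0.0817) or EV library 4 (0.0642), with scaling to the total library size alone (log2 fold change 0.10, adjusted p = 0.247), with at least 10 counts in every library (0.15, adjusted p = 0.179) and with the replicate number as a block (0.0524). Over 141 bases Tcp1 also overlaps Mrpl18, which had 11, 11 and 7 counts in controls and 2, 4 and 2 after EVs and was not tested. Cct8 overlaps Usp16 on the opposite strand, which had between 57 and 83 counts (0.14, adjusted p = 0.573). Cct6a and Cct7 overlap Psph (0.13, adjusted p = 0.698) and Pradc1 (-0.32, adjusted p = 0.396). Whether reads of a neighbour are among the counts listed under these subunits, or the reverse, was not tested.

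**Figure D3:**
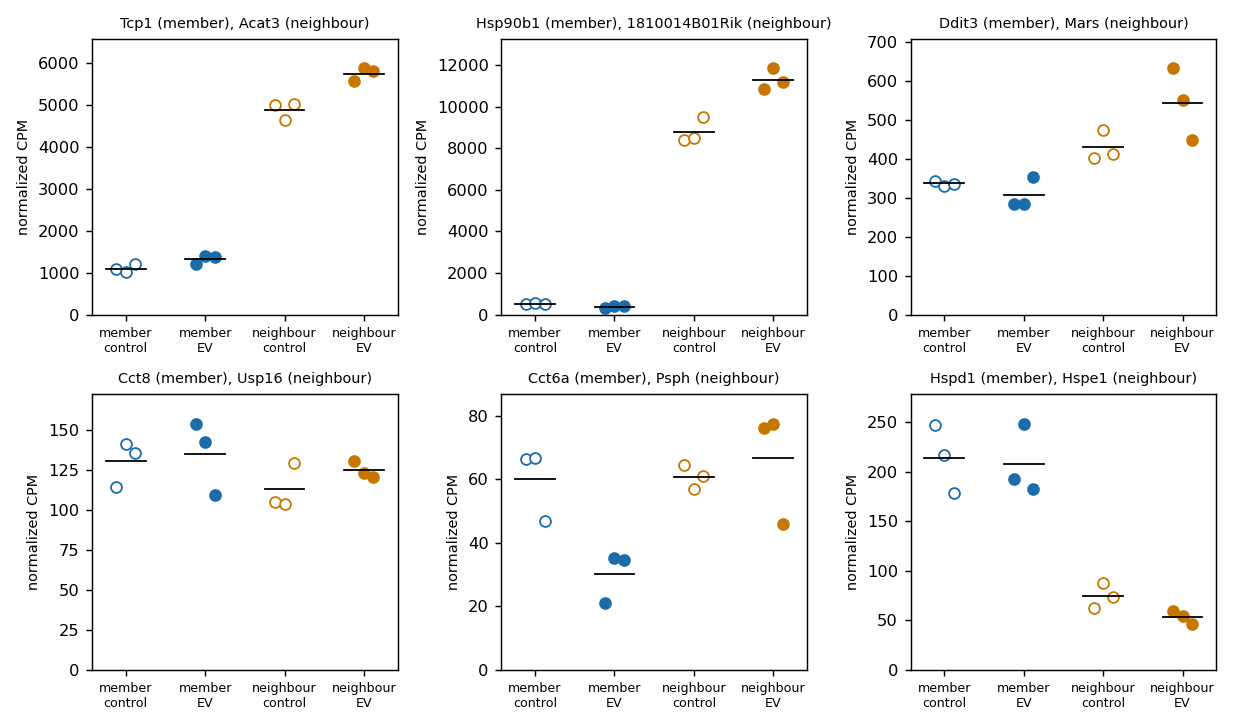
Normalized CPM of 6 chaperone genes (blue) and of a gene whose exons overlap theirs on the opposite strand (orange), with open points for the 3 control libraries, filled points for the 3 EV libraries and lines for the means. Each axis starts at 0. Tcp1 and Acat3 are both higher in the EV libraries, while Hsp90b1 is lower there and its neighbour is higher.

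ER chaperones were tested in 12 of 14 cases. All 12 had a negative log2 fold change, 7 passed the threshold, and the median was -0.70. The sequence before the start of several of these genes holds a known shared signal, the ER stress response element, which ATF6 and other factors of the unfolded protein response bind. It was searched as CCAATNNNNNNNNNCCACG on both strands in the 250 bases before the start, in RefSeq sequences of GRCm38.p6. Of the 37 chaperone genes with such a sequence, 13 are ER chaperones. The element was found in 6 of these 13 (Hsp90b1, Hspa5, Dnajc3, Calr, Canx and Pdia6), in none of the other 24, and in 0.113% of the 32851 sequences before a start in the table. The CCAAT box alone, which is part of the element, was found in 23 of the 37 and in 33.8% of all. The sequences of 4 of these genes are shown because their counts differ, with Hspa5, Hsp90b1 and Calr past the threshold and Canx not. They are written 5′ to 3′ on the strand of the gene, with the element in capitals on whichever strand it was found.
Hspa5 (chr2:34771840-34772089, plus strand): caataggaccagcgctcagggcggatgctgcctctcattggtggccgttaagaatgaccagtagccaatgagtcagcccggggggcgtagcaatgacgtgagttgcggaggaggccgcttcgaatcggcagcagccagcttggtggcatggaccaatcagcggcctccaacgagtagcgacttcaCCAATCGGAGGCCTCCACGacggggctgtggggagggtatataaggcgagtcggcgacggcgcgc
Hsp90b1 (chr10:86705445-86705694, minus strand): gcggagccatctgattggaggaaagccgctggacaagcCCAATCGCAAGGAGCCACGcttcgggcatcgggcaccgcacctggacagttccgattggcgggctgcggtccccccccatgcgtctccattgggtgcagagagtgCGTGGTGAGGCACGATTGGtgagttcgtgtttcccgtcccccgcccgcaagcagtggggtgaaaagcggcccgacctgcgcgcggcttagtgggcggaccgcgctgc
Calr (chr8:84846932-84847181, minus strand): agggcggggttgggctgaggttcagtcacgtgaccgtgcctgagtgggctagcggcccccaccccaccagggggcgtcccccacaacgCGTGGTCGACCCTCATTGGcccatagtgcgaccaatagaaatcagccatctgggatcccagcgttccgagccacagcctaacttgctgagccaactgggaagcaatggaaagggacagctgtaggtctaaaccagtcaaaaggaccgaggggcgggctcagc
Canx (chr11:50325674-50325923, minus strand): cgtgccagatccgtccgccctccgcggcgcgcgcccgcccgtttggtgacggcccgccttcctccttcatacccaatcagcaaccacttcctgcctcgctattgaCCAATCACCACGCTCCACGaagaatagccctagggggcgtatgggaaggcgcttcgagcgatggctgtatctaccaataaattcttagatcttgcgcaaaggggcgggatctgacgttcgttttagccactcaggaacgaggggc

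The element lies with its first base 65 bases before the start in Hspa5, 162 in Calr and 145 in Canx, and Hsp90b1 has it at 212 and 107 bases. Of the tested genes with the element, 4 passed the threshold on the lower side (Hsp90b1, Hspa5, Calr and Pdia6) and Dnajc3 and Canx did not. Among the tested ER chaperones in which it was not found, Dnajc10 and P4hb passed, and Pdia3, Pdia4 and Ero1l did not. Hyou1, which also passed, had no sequence in the table. The match is to letters and says nothing of binding.

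Hspa5, also named BiP, is the HSP70 protein of the ER and holds the sensors of unfolded protein in check. It lies on chromosome 2 (34772090 to 34776529, plus strand), and its counts were 118, 133 and 98 in controls and 42, 68 and 66 after EVs. All EV libraries were below the lowest control library, control library 3, and the level was 0.577 times that in controls (log2 fold change -0.79, SE 0.17, adjusted p = 0.000493). Hsp90b1, the HSP90 protein of the ER, on chromosome 10 (86690841 to 86705444, minus strand), had 267, 348 and 334 counts in controls and 152, 222 and 218 after EVs (-0.48, SE 0.11, adjusted p = 0.00178). Over 415 bases its exons overlap those of 1810014B01Rik on the opposite strand, whose counts, between 4537 and 6723, were many times higher and rose in the EV libraries (0.36, SE 0.08, adjusted p = 0.000574). The counts listed under Hsp90b1 thus fell while those of this neighbour rose. Whether reads of Hsp90b1 are among the counts of this neighbour, or the reverse, was not tested. Hyou1, an exchange factor for Hspa5, had 15, 18 and 15 counts against 5, 4 and 7 (-1.36, SE 0.40, adjusted p = 0.0104). That call was lost without control library 2 (0.0644) or EV library 2 (0.0809).

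Calr, calreticulin, which binds newly made glycoproteins, was the most counted ER chaperone in every control library. On chromosome 8 (84842088 to 84846931, minus strand), its counts were 358, 482 and 404 in controls and 150, 217 and 229 after EVs. The highest EV library held fewer counts than the lowest control library by a wide margin, and the level was 0.55 times that in controls (log2 fold change -0.86, SE 0.11, adjusted p = 8.79e-08). Its membrane-bound relative Canx, calnexin, had 235, 236 and 224 counts in controls and 158, 186 and 168 after EVs. After scaling, all EV libraries of Canx were still below the controls, but its log2 fold change of -0.24 (SE 0.12) missed the threshold with an adjusted p of 0.129. Without control library 3 it passed (0.0417). Whether the log2 fold changes of Calr and Canx differ was not tested.

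Of the genes that make and rearrange disulfide bonds, Dnajc10, P4hb and Pdia6 fell, and Pdia3, Pdia4 and Ero1l did not pass the test. Dnajc10, a reductase that opens wrong disulfides, on chromosome 2 (80315446 to 80354055, plus strand), passed the filter through the control libraries. Its counts were 15, 22 and 20 in controls and 4, 5 and 6 after EVs. Low as they were, they did not overlap, and the EV level was 0.308 times the control level (log2 fold change -1.70, SE 0.38, adjusted p = 0.0011). P4hb, the founding protein disulfide isomerase and a subunit of collagen prolyl 4-hydroxylase, had 68, 97 and 82 counts against 35, 42 and 58 (-0.67, SE 0.18, adjusted p = 0.00647). Pdia6 had 23, 30 and 28 against 8, 17 and 13 (-0.89, SE 0.29, adjusted p = 0.0233). P4hb was not past the threshold without control library 2 (0.0686) or EV library 2 (0.0628), nor was Pdia6 without control library 2 (0.0841), EV library 1 (0.121) or EV library 4 (0.0679).

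Pdia3, the isomerase that works with Calr and Canx on glycoproteins, had 108, 130 and 108 counts in controls and 71, 102 and 88 after EVs. After scaling, the groups overlapped, and the log2 fold change was -0.21 (SE 0.15, adjusted p = 0.309). The remaining ER chaperones had few counts, with 9 to 29 for Pdia4, 7 to 18 for Dnajc3 and 5 to 20 for Ero1l, and adjusted p-values of 0.073, 0.242 and 0.279. In Pdia4 and Dnajc3 the normalized CPM of the groups did not overlap, and in Ero1l, the oxidase that feeds disulfides to the isomerases, it did. Without EV library 2 Pdia4 passed the threshold (0.0476).

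The 3 mitochondrial chaperones work as 1 pathway, in which Hspa9, the HSP70 of the matrix, pulls in proteins that the ring of Hspd1 with its lid Hspe1 then folds. Of these, only Hspa9 passed the threshold. It had 160, 212 and 157 counts in controls and 71, 134 and 101 after EVs, and each EV library was below each control library, with a log2 fold change of -0.60 (SE 0.15, adjusted p = 0.0025). Without control library 2 the adjusted p was 0.0581. Hspd1 had 134, 133 and 114 counts in controls and 91, 141 and 95 after EVs. Its groups overlapped, and its log2 fold change was -0.03 (SE 0.15, adjusted p = 0.904). Hspe1 had 34, 54 and 47 counts against 28, 31 and 24, with no overlap after scaling, and a log2 fold change of -0.50 (SE 0.22, adjusted p = 0.0948). Ring and lid are thus not shown to have moved alike or apart, since the difference between them was not tested.

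Hspd1 and Hspe1 lie head to head on chromosome 1 with sequence before an annotated start of each in common, and their exons overlap over 112 bases. That sequence holds a heat shock element, the signal that Hsf1 binds, searched as TTCNNGAANNTTC on both strands in the 250 bases before the start. It was found for 3 of the 37 chaperone genes (Hspd1, Hspe1 and Dnajb6) and in 0.466% of the sequences in the table. The other 8 chaperone genes had no sequence there and were not searched (Hsp90aa1, Hsp90ab1, Hspa8, St13, Cct4, Hyou1, Hspa9 and Hsf1). In Hspe1 the element was found as a pair of overlapping matches 89 and 84 bases before the start. The matches lie before the start of Hspe1 and before an inner annotated start of Hspd1, and none was found before the outer start of Hspd1. The sequence is shown for that reason, from RefSeq and GRCm38.p6 and on the strand of Hspe1, with the matches in capitals.
Hspe1 (chr1:55087898-55088147, plus strand): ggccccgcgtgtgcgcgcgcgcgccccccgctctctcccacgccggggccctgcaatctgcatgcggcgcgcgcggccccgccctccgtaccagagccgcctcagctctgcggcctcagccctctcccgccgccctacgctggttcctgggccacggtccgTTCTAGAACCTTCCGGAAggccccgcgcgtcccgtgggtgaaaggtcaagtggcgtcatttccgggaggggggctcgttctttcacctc

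None of these 3 genes passed the threshold, and the log2 fold change of Dnajb6 was -0.55 (SE 0.30, adjusted p = 0.174). Its counts were 21, 44 and 19 in controls and 12, 22 and 16 after EVs, which overlapped.

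Of the 5 stress regulators only Atf4 and Ddit3 had enough counts, and Atf4 fell. Atf4 is the transcription factor that cells translate more when the initiation factor eIF2 is phosphorylated, and Ddit3, also named CHOP, is a known target of it. Atf4 (chromosome 15, 80255184 to 80257545, plus strand) had 43, 64 and 50 counts in controls and 17, 13 and 14 after EVs. The EV libraries lay close together and far below the controls, at 0.325 times the control level (log2 fold change -1.62, SE 0.25, adjusted p = 2.16e-06). Atf4 passed the threshold in each of 13 alternatives, with a log2 fold change between -1.77 and -1.45 when 1 library was left out. Ddit3 (chromosome 10, 127290793 to 127296291, plus strand) had 186, 203 and 215 counts in controls and 134, 161 and 184 after EVs. After scaling, EV library 4 was above all controls, and the log2 fold change was -0.13 (SE 0.12, adjusted p = 0.446). Its exons overlap those of Mars, the methionyl-tRNA synthetase gene on the opposite strand, over 68 bases, and Mars had 217, 292 and 263 counts against 299, 313 and 233 (0.34, SE 0.12, adjusted p = 0.0288). The call of Mars was lost when control library 1 (0.178), 2 (0.0708) or 3 (0.12) or EV library 1 (0.126) or 2 (0.0604) was left out. It was also lost with scaling to the total library size alone (0.23), with at least 10 counts in every library (0.11) and under DESeq2's Wald test (0.0707).

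Levels summed over a compartment set the compartments side by side. The 14 ER chaperones summed to 2335, 2548 and 2154 normalized CPM in controls 1, 2 and 3, and after EVs the sums were 1384, 1607 and 1691, a ratio of the means of 0.665. The groups lay well apart. For the 15 cytosolic chaperones the means were 4890 ± 355 in the controls and 3820 ± 313 in the EV libraries (SD, n = 3 each), a ratio of 0.781, and Hsp90ab1 gave most of these counts. Without Hsp90ab1 the ratio was 0.659. The CCT subunits summed to 1617 ± 74.1 in the controls and 1677 ± 116 in the EV libraries (SD, n = 3 each), and the groups overlapped. Tcp1 alone gave most of that sum, and without it the ratio was 0.667. The mitochondrial chaperones had a ratio of 0.778, with 1 EV library within the range of the controls, and the stress regulators had 0.769, without overlap. With the gene with the most counts left out there too, the ratio was 0.714 for the ER chaperones (without Calr), 0.904 for the mitochondrial chaperones (without Hspa9) and 0.392 for the stress regulators (without Ddit3). These sums were not tested, and no difference between compartments was tested.

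**Figure D4:**
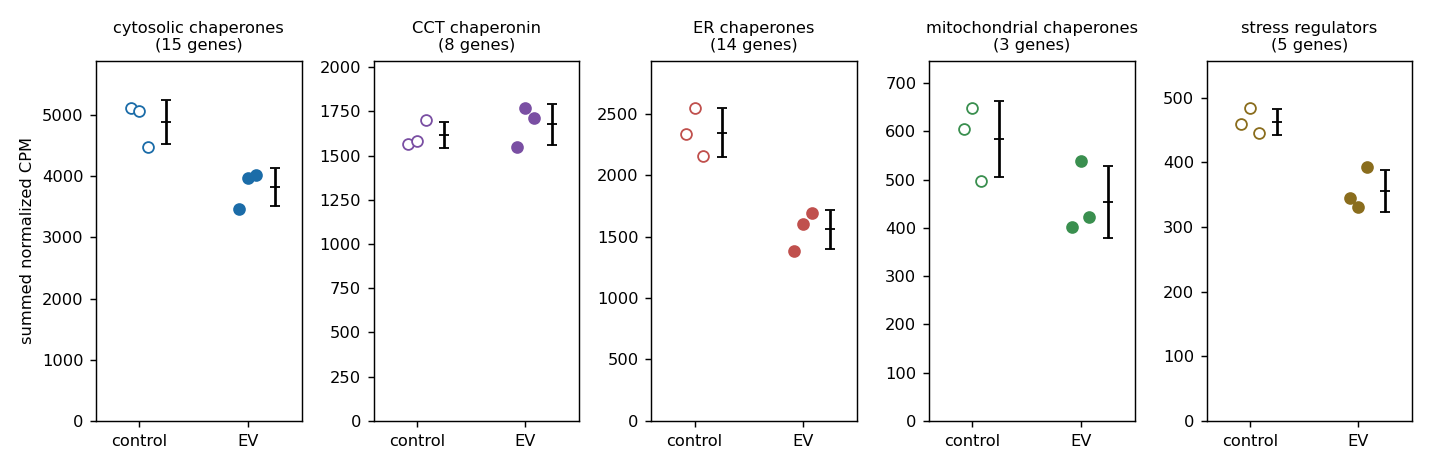
Summed normalized CPM of the genes of each compartment, with open points for the 3 control libraries, filled points for the 3 EV libraries and bars for the mean and the SD. Each axis starts at 0. The ER chaperones, cytosolic chaperones and stress regulators are lower in all EV libraries, the mitochondrial chaperones overlap in 1 library, and CCT overlaps.

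The chaperone genes were also divided by whether their exons overlap those of a gene on the opposite strand. Exons of 12 chaperone genes do, and all 12 were tested. Of these, 4 passed the threshold on the lower side (Cct6a, Cct7, Hsp90b1 and Pdia6) and Tcp1 on the higher side, with a median log2 fold change of -0.35. Among all tested genes with an overlap, 9.44% passed on the lower side and 12.3% on the higher side, and the median was 0.13. Of the 26 tested chaperone genes without an overlap, 15 passed on the lower side and none on the higher side, all 26 had a negative log2 fold change, and the median was -0.66. Among all tested genes without an overlap, 19.6% passed on the lower side and 2.55% on the higher side, and the median was -0.21. Fitted without any gene that has such an overlap, 12 of the 26 passed on the lower side, against 12.1% of all genes in that fit, and Hspa4, Dnaja2 and P4hb were lost (adjusted p = 0.127, 0.0845 and 0.0536).

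Several chaperone genes have near copies elsewhere in the genome, and the sources used here do not say how reads that match several places were counted. Of all stretches of 50 bases in the annotated exons, 48.8% were shared with another gene in Hspb1, which was not tested. Among the tested genes, 47.5% were shared with another gene in Hsp90aa1, 39.7% in Hspd1, 36.2% in Hspa8, 18.4% in Hspe1, 17.7% in Dnajb6, 12.7% in Ppia and 11.6% in Dnaja1. The counts of these genes are therefore uncertain. Of these 7, Hsp90aa1, Hspa8 and Ppia passed the threshold, all on the lower side. Among the 31 tested genes that shared at most 10% of such stretches, 16 passed it on the lower side, and the median log2 fold change was -0.61, beside -0.53 in the 7.

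The number of chaperone genes past the threshold depended on the settings, and the direction of those that passed did not. Of 13 alternatives, DESeq2's Wald test gave the fewest on the lower side, 10 of the 33 genes to which it gave an adjusted p, against 7.2% of all such genes. Scaling to the total library size alone, which moved the median log2 fold change of all genes to -0.12, gave the most, 26 of 38. In that setting 19.0% of all genes tested were lower. None of the chaperone genes was then on the higher side, against 89 of 5066 genes. Without control library 2 the number was 11, with 9 of the 20 calls lost, against 7.47% of all genes tested then, and without EV library 1 it was 13, against 8.64%. Under DESeq2's Wald test 7 calls were lost, those of Hspa4 (adjusted p = 0.102), Dnaja2 (0.135), Cct4 (0.0669), Cct6a (0.0614), Cct7 (0.084), Pdia6 (0.136) and P4hb (0.0507). With no filter on low counts, the calls of Hspa4 (0.104), Dnaja2 (0.0947) and Pdia6 (0.089) were lost. Hspa8, Ppia, St13, Hsp90aa1, Cct5, Hspa5, Hsp90b1, Calr and Atf4 passed the threshold in every alternative that gave them a value. Dnajc10 had no value under DESeq2's Wald test or with at least 10 counts in every library, and passed in the other 11.

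**Figure D5:**
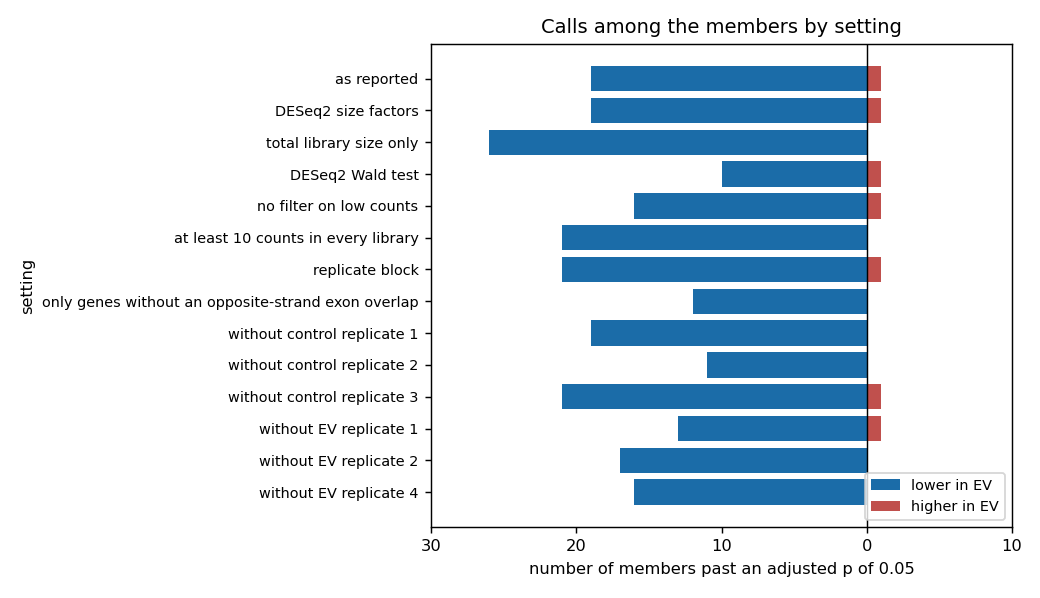
Number of chaperone genes past an adjusted p of 0.05 on the lower side (blue, to the left) and on the higher side (red, to the right), as reported and under 13 alternatives. The lower side ranges from 10 with DESeq2's Wald test to 26 with the total library size, and the higher side holds 1 gene or none.

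In 5 further lists of 107 chaperone and stress genes, 54 were tested, 15 passed the threshold on the lower side and 6 on the higher side, against 14.3% and 7.58% of all genes tested, with a median log2 fold change of -0.41. Summed over the 107 genes, the normalized CPM in the EV libraries was 1.03 times that in the controls, and 1.04 times over the ER folding genes among them. These sums were not tested. Of 18 tested cytosolic co-chaperones and nascent chain factors, 7 were lower and 2 higher. Naca, which shields chains as they leave the ribosome, had 111, 136 and 121 counts in controls and 52, 66 and 64 after EVs (log2 fold change -0.81, SE 0.15, adjusted p = 0.000106), and Dnajc2, a ribosome-bound J-domain protein, had 42, 45 and 50 against 13, 26 and 14 (-1.17, SE 0.24, adjusted p = 0.000476). Of 21 tested ER folding genes, 5 were lower and 2 higher. Serpinh1, the collagen chaperone HSP47, had 76, 120 and 93 counts against 28, 43 and 43 (-1.14, SE 0.18, adjusted p = 5.83e-06). Txndc5, a disulfide isomerase, had 26, 34 and 36 against 9, 16 and 6 (-1.42, SE 0.30, adjusted p = 0.000519). All EV libraries of these 4 genes were below the controls. Of the 4, only Txndc5 has an opposite-strand exon overlap, of up to 311 bases.

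In the list for prefoldin, which passes actin and tubulin chains to CCT, 2 genes were tested, Pfdn5, a subunit, and Pdcl3, a phosducin-like protein. Pdcl3 missed the threshold (log2 fold change -0.55, adjusted p = 0.302), and Pfdn5 was lower, with 11, 25 and 14 counts in controls and 6, 7 and 5 after EVs (log2 fold change -1.25, SE 0.39, adjusted p = 0.0179). Leaving out control library 2 (0.209), EV library 2 (0.0509) or EV library 4 (0.0884) ended that call, and so did having no filter on low counts (0.052). Of 6 tested mitochondrial chaperones and proteases, 1 was lower and 2 were higher. Htra2, a protease of the space between the mitochondrial membranes, had 909, 968 and 1142 counts against 900, 1205 and 1139 (0.30, SE 0.09, adjusted p = 0.00957), and Dnajc19, a J-domain protein of the import channel, had 202, 236 and 247 against 215, 291 and 241 (0.32, SE 0.11, adjusted p = 0.0289). Both have an opposite-strand overlap, and neither call held without control library 2 (0.109 and 0.122) or with scaling to the total library size alone (0.0916 and 0.212). Htra2 was also lost without EV library 4 (0.0513), and Dnajc19 with control library 1 (0.121) or 3 (0.0591) or EV library 2 (0.11) left out. With at least 10 counts in every library both missed the threshold (0.0571 and 0.105), and Dnajc19 also did under DESeq2's Wald test (0.0541). Of 7 tested stress regulators and targets, 1 was lower, Asns, an asparagine synthetase that Atf4 is known to induce. It had 11, 27 and 20 counts in controls and 5, 13 and 5 after EVs, which overlapped (-1.12, SE 0.37, adjusted p = 0.0242), and its call was lost without control library 2 (0.208), EV library 1 (0.0885) or EV library 4 (0.14). The call was also lost with no filter (0.0618), with the replicate number as a block (0.111) and without genes that have an opposite-strand overlap (0.0533).

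Other genes behind the smaller of these counts were named after their values were seen. Stub1, a ubiquitin ligase that binds HSP70, was a cytosolic gene on the higher side (log2 fold change 0.45, adjusted p = 0.00482), and Ero1lb and Txndc11 were those of the ER (0.49 and 0.62, adjusted p = 0.000983 and 0.023). Ppib, an ER cyclophilin, Fkbp10 and Manf were lower (-1.64, -1.25 and -1.06, adjusted p = 0.00056, 0.00843 and 0.0217), and so was Lonp1, a protease of the mitochondrial matrix (-0.49, adjusted p = 0.0355). The groups did not overlap in any of these 7. Exons of Stub1, Txndc11, Ppib, Fkbp10 and Manf overlap those of an opposite-strand gene, over up to 1084, 75, 825, 193 and 166 bases. Those of Ero1lb and Lonp1 do not. Whether reads of the opposite strand are among these counts was not tested. Ppib and Ero1lb passed the threshold in every alternative that gave them a value. Without control library 2 the others missed it (Stub1 0.0522, Txndc11 0.185, Fkbp10 0.0517, Manf 0.0776 and Lonp1 0.143), and without control library 1 so did Stub1 (0.0538), Fkbp10 (0.0915), Manf (0.051) and Lonp1 (0.0702). Txndc11 was also lost without control library 3 (0.0749) or EV library 2 (0.0904), Manf without EV library 1 (0.0593) or 4 (0.121), and Lonp1 without EV library 1 (0.181), 2 (0.0728) or 4 (0.0743). With scaling to the total library size alone, Txndc11 kept a positive log2 fold change of 0.49 (adjusted p = 0.0918), and with the replicate number as a block Manf had an adjusted p of 0.111. Under DESeq2's Wald test Txndc11 (0.107), Fkbp10 (0.0664) and Lonp1 (0.157) missed the threshold. So did Txndc11 with at least 10 counts in every library (0.0653), and Manf (0.0797) and Lonp1 (0.193) with no filter. Without genes that have an opposite-strand overlap Lonp1 had 0.21.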

How the data were processed

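RNA-seq libraries of 3T3-L1 cells, 3 per group, were analysed. Reads had been mapped by the authors with STAR against mm10 and summed per gene by Rsubread, and the table they deposited holds these raw counts, not normalized. The versions, the annotation, the strand setting and the handling of reads with several matches are not given in the sources used here. Groups were compared over all genes, without covariates, by the quasi-likelihood test of edgeR 4.0.16 (R 4.3.3), after filterByExpr and with TMM factors set on the genes kept. The study used DESeq2, which served as an alternative (version 1.42.0). The list of changed transcripts in the study names none of the chaperone genes described here. That list is far shorter than the 1107 genes past the threshold here, or the 539 with DESeq2's Wald test. Its log2 fold changes all lie nearer 0 than those of Hspa8 and Atf4 here. Why the results differ was not tested. Totals were between 508599 and 665465 counts, which limits genes with few counts, and the biological coefficient of variation was 0.0779. These totals are far below the number of reads that the paper gives for its sequencing. The reason, and which part of the reads the counts stand for, was not tested. An SE was taken as the log2 fold change over the root of the F statistic. The libraries come from separate plates, and p-values measure the spread between these plates. The fit was tested on simulated data.

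Symbols and coordinates came from RefSeq (GRCm38), exon lengths and opposite-strand exon overlaps from GENCODE vM21 of the same assembly. The 45 genes and all lists were chosen with earlier results of these data known. Full values are given for members past the threshold and for Ppia, Hsp90ab1, Pdia3 and Cct7, whose proteins the study lists, and for other lists the 2 genes with the lowest adjusted p among those past the threshold. Members that missed the threshold by little, or that belong beside one that passed, are described too, and these were chosen after their values were seen. Alternatives were DESeq2's size factors, the total library size, the DESeq2 Wald test, no filter, at least 10 counts in every library, the replicate number as a block, genes without opposite-strand overlap only, and each library left out. Values of 1 gene of the further lists are not reported here. Reads and proteomics data were not analysed here, and neither were protein sequences.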

Additional observations from a re-analysis of the deposited data

How the results depend on the processing

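The median log2 fold change of the chaperone genes, -0.60, was between -0.73 and -0.48 in 13 alternatives, moves below 0.18, the SD between replicates of a library's median log2 level over these genes. No result past the threshold reversed. The number lower past the threshold, 19, became 10 with DESeq2's Wald test and 12 when only genes without an opposite-strand overlap were fitted. It ranged from 11, without control library 2, to 21 when 1 library was left out. The number higher, 1, became 0 with the total library size, with at least 10 counts in every library and with only genes without an overlap, and ranged from 0 to 1 when 1 library was left out. Over all genes, 1107 passed the threshold, 539 with DESeq2's Wald test, 615 with at least 10 counts in every library and 535 among genes without an overlap, with a range of 455 to 1154 when 1 library was left out. Of the 1107, 723 were lower and 384 higher, against 962 and 89 with the total library size. Control and EV libraries share the numbers 1 and 2, and their deviations from the group means correlated by 0.0714 and 0.0634. With few counts in many genes, such values cannot show whether libraries with the same number belong together. With the replicate number as a block, 21 chaperone genes were lower and 1 was higher, with 1115 genes in all. Numbers 3 and 4 each belong to 1 library, so in that fit the difference rests on the libraries numbered 1 and 2. The median was then -0.73. By compartment, DESeq2's Wald test left 1 CCT subunit (of 4) and 3 ER chaperones (of 7) lower, the fit of genes without an overlap 2 and 4, and the total library size gave 2 mitochondrial chaperones (of 1). With 1 library left out these ranged from 1 (without EV library 1) to 4, from 4 to 8 and from 0 to 1, the lowest of the last 2 without control library 2. Among genes without an overlap the median was -0.57 for CCT (-0.74 as reported) and -1.44 for the stress regulators (-0.88), which ranged from -1.07 to -0.47 with 1 library left out (-0.47 without control library 1 and -0.53 without control library 3). In the further lists, the 15 lower genes became 5 with DESeq2's Wald test, 9 with no filter or at least 10 counts, and 6 without overlaps, and ranged from 5 (without control library 2) to 19 with 1 library left out. Of all genes, 7.2% were lower with DESeq2's Wald test, 3.52% with no filter and 13.1% with at least 10 counts. The share of all genes was 12.1% without overlaps and 7.47% without control library 2. The 6 higher became 2 with the total library size or at least 10 counts, and 3 with DESeq2's Wald test or without overlaps, and ranged from 1 (without control library 2) to 6. Over all genes, 89 of 5066 were higher with the total library size and 142 of 3613 with at least 10 counts. With DESeq2's Wald test 245 of 4084 were higher, without overlaps 223 of 2584, and without control library 2 65 of 5221. The cause of these shifts was not tested. Genes with few counts, such as Hyou1 and Dnajc10, had wide standard errors, 0.40 and 0.38.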

Other observations

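Some further genes that heat shock is known to induce strongly were looked at after their values were seen, and they are not all such genes. Of those described above, Hsp90aa1, the HSP90 form that stress induces, was lower (log2 fold change -0.53, edgeR adjusted p = 0.000512). Hsph1 and Dnajb1 missed the threshold (edgeR adjusted p = 0.239 and 0.82). Hspa1a and Hspa1b, near-identical copies that code for the inducible HSP70, had 12, 16 and 12 and 16, 18 and 16 counts in control libraries 1, 2 and 3, and 13, 15 and 16 and 15, 15 and 21 in EV libraries 1, 2 and 4. Their log2 fold changes were 0.34 and 0.23 (SE 0.32 and 0.30, edgeR adjusted p = 0.471 and 0.608). Reads may be split between these copies, and no change was detectable at this depth. Cryab, a small heat shock protein, had between 6 and 12 counts per library (-0.27, adjusted p = 0.655). Exons of Hspa1a and Cryab overlap those of a gene on the opposite strand, over 564 and 252 bases.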
